A study of Mus musculus with 27 samples.

Results

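The SOCS (suppressor of cytokine signalling) family has 8 genes in the mouse, Socs1 to Socs7 and Cish. They were found by symbol, and all 8 were present among the 55483 genes of the count table. The cells were RAW264.7, which are macrophage-like and of mouse origin. For 6 h they received the solvent DMSO alone, LPS (1 µg/ml) together with DMSO, or both LPS at that dose and TM7nox (10 µM). These groups are called DMSO, LPS and LPS+TM7nox here. LPS is a bacterial lipopolysaccharide that macrophages sense as a sign of infection, and TM7nox is a compound of the tanshinone mimic series. Each treatment gave 4 total RNA libraries, 4 libraries of RNA recovered with an antibody against the RNA-binding protein HuR (RIP, ribonucleoprotein immunoprecipitation) and 1 library of RNA recovered with control IgG, which was replicate 3 in every treatment. The study asked how the LPS response of these cells changes when HuR is modulated.

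SOCS proteins are feedback brakes on cytokine receptors. Binding of a cytokine activates JAK kinases, which phosphorylate STAT transcription factors, and STATs switch on SOCS genes among their targets. The proteins share an SH2 domain, which binds phosphorylated tyrosines, and a SOCS box, which recruits a ubiquitin ligase. SOCS1 and SOCS3 also inhibit JAK kinases directly through a short kinase inhibitory region. In macrophages SOCS3 restrains signalling through gp130, the receptor chain used by IL-6, while SOCS1 restrains interferon signalling. CISH and SOCS2 act mainly on signalling through STAT5, and SOCS4 to SOCS7 are less well understood. HuR, the product of Elavl1, is an RNA-binding protein with a preference for U and AU repeats, often those of a 3′ UTR.

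The libraries held 2.73 to 41.4 M counts. The lowest total was that of RNA DMSO replicate 1, and every other RNA library had at least 16.3 M. All 10 macrophage markers were detected, with a summed level of 3608 to 7092 CPM in the RNA libraries (CPM is the count scaled to a common library depth). Summed markers of T cells, fibroblasts and epithelial cells stayed under 0.4 CPM in RNA. The 4 B cell markers summed to 0 to 0.225 CPM in RNA from DMSO and 1.78 to 3.98 CPM in LPS, and to 1.61 to 4.30 CPM with TM7nox added. The 4 neutrophil markers summed to 0 to 0.103 CPM in DMSO, 1.56 to 3.51 CPM in LPS and 0.0949 to 0.477 CPM with TM7nox added, the same direction as Socs3 and Socs1 below. The 3 endothelial markers summed to 0.232 to 2.75 CPM, 0.967 to 2.65 CPM and 0.680 to 1.26 CPM in RNA, and in RIP to 0.703 to 1.49 CPM in DMSO and 3.65 to 5.64 CPM in LPS. The part of these markers in the results was not tested. In bulk libraries, fewer cells that express a gene and less RNA per cell cannot be told apart.

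In resting cells Socs4 to Socs7 had the highest levels of the family. Per kb of transcript, mean levels in RNA from DMSO were 3.16 CPM for Socs5, 2.89 for Socs6, 2.84 for Socs4 and 2.12 for Socs7. Neighbours in this order overlapped between libraries, and the order depended on the length used. Over the union of all annotated exons, Socs4 came first at 2.84 CPM per kb, then Socs5 at 2.03, Socs7 at 2.00 and Socs6 at 1.48. Below them, without overlap, came Socs3 at 0.933 CPM per kb and then Socs1 at 0.317. Socs2 and Cish were at or near the detection limit. In LPS the order turned over. Socs3 stood at 302 CPM per kb, while the next gene, Socs7, was at 3.76 and did not overlap it. By canonical length, Socs7, Socs6, Socs5, Socs4 and Socs1 then followed, each overlapping the next, down to 2.10 CPM per kb for Socs1.

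**Figure D1:**
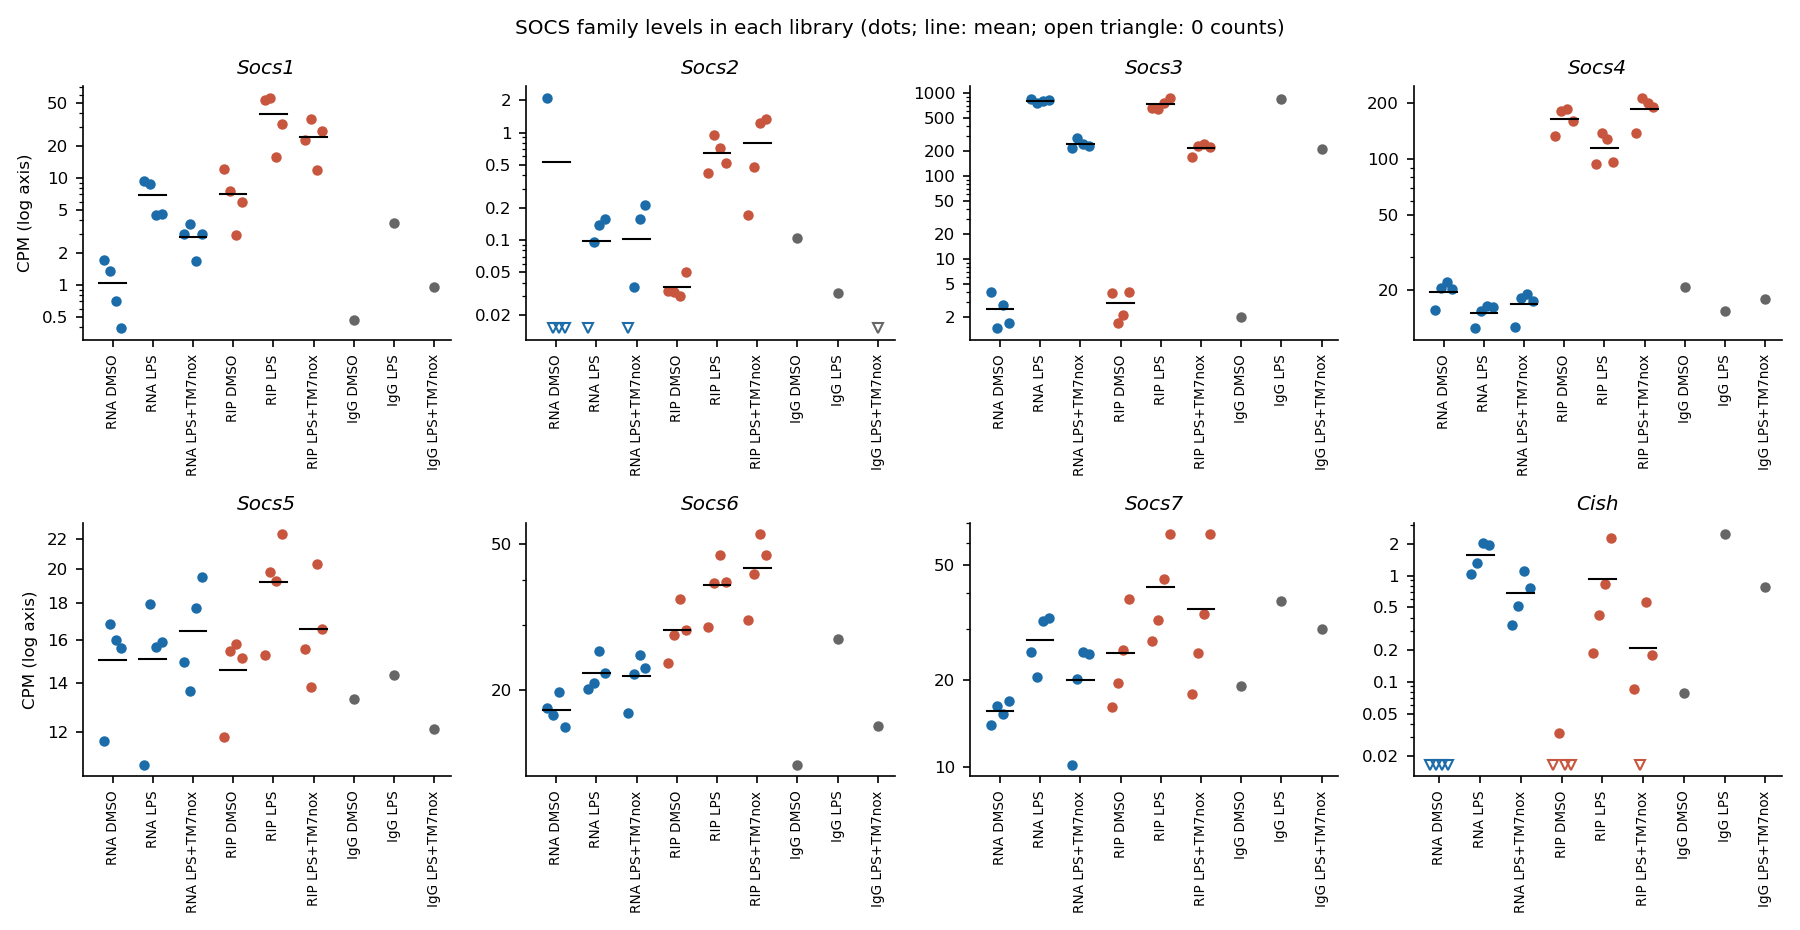
CPM (log axis) of each SOCS family gene in each library, grouped by assay and treatment. Dots are libraries, lines are means of 4 libraries and open triangles mark libraries with 0 counts. Socs3 rose from 1.47 to 4.03 CPM in RNA from DMSO to 756 to 846 CPM in LPS, while Socs4 in RIP lay at 94.3 to 214 CPM in every treatment against 12.5 to 22 CPM in RNA.

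The first comparison, LPS against DMSO in total RNA, measured the response of the family to the inflammatory stimulus. The 3 members best known as inducible feedback genes, Socs3, Cish and Socs1, rose, and Socs7 rose less. Of the 8 members, 7 passed the filter on low counts (Socs2 did not), 4 were called higher and 1 lower, beside 42% of all 12369 genes tested that were called in either direction (20.2% higher, 21.7% lower). Cish, 1 of the 4, passed the filter only through libraries that had received LPS, so it could enter this count only as higher, and nothing is read from the count. The median log2 fold change was 0.79 over the 7 members, Cish included, and -0.04 over all genes. On library totals the median of all genes was -0.32 in RNA and -0.63 in RIP for LPS against DMSO, and values are given relative to the typical gene. The count of members has no test of its own.

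The promoters of the 3 inducible members are shown here because these genes moved together. They are 300-base RefSeq promoters (250 bases before to 50 bases after the start site, read on the strand of the gene, from GRCm38.p6). The table held 4 of the 8 members. Capitals mark 2 motifs searched on both strands: the STAT site TTCNNNGAA, and an element of interferon regulatory factors (IRF), which is GAAA, any 2 bases and GAAA again.
Socs3, chr11:117969317-117969616 on the minus strand: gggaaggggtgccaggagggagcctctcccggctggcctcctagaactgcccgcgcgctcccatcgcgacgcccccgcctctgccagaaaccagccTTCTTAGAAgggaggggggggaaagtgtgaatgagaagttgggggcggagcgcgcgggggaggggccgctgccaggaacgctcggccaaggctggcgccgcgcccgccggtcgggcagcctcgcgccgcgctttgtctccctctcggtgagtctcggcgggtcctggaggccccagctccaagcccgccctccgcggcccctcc
Cish, chr9:107296409-107296708 on the plus strand: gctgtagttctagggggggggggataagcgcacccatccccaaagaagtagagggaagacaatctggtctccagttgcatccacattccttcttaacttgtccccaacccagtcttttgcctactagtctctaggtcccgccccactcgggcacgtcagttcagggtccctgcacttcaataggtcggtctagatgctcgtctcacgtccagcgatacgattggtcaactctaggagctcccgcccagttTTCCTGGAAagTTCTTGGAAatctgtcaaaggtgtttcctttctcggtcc
Socs1, chr16:10785487-10785786 on the minus strand: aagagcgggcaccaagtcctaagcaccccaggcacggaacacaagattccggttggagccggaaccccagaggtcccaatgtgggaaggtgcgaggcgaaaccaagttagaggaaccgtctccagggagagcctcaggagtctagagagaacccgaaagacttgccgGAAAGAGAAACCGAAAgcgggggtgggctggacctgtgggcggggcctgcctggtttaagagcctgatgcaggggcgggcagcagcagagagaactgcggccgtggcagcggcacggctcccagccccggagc
The Socs3 promoter held 1 STAT site, which began 154 bases before the start site. The Cish promoter held 2, which began at bases 1 and 12 counted from the start site. The Socs1 promoter held 2 overlapping IRF elements, 83 and 77 bases before the start, and no TTCNNNGAA. The promoter of Socs4, which did not rise, held neither motif. Among 32851 promoters of the same length, 8.30% held TTCNNNGAA and 3.44% held the IRF element. These matches describe the sequence only.

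Socs3 had the highest level of the family in LPS. In RNA from DMSO its 4 libraries, in replicate order, were at 4.03, 1.47, 2.77 and 1.68 CPM (2.48 ± 1.18, SD, n = 4). In LPS they were at 846, 756, 803 and 813 CPM (804 ± 37.1, SD, n = 4). The groups lay far apart and the LPS libraries were close to each other. This was a log2 fold change of 8.49 (SE 0.294, edgeR quasi-likelihood FDR 4.47e-10).

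Cish, which encodes the CIS protein, went from no count to a low level. It had 0 counts in all 4 RNA DMSO libraries and was at 1.03, 1.32, 2.03 and 1.93 CPM in LPS (1.58 ± 0.482, SD, n = 4), from 186 counts in all. Against a floor of 3 counts over the DMSO group, Cish was at least 56.4-fold higher in LPS. As no DMSO library helped it through the filter, its edgeR FDR of 2.32e-05 is conditional on high counts with LPS. With no filter on low counts it was called too (FDR 2.28e-13). Without RNA DMSO replicate 2 the bound was 35.5-fold. The gene thus rose by a large factor while staying near 1 CPM.

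Socs1 was at 1.70, 1.34, 0.708 and 0.394 CPM in RNA from DMSO (1.03 ± 0.590, SD, n = 4) and at 9.45, 8.83, 4.50 and 4.62 CPM in LPS (6.85 ± 2.66, SD, n = 4). The groups did not overlap, and replicates 1 and 2 were higher than replicates 3 and 4 in both. On the log2 scale Socs1 rose by 2.86 (SE 0.445, edgeR FDR 0.000137).

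Socs7, which carries an additional proline-rich region at its N-terminal end, was at 14, 16.3, 15.3 and 17.0 CPM in DMSO and at 25, 20.5, 32.1 and 33 CPM in LPS. These groups did not overlap either (log2 fold change 0.79, SE 0.236, edgeR FDR 0.0151). The call was lost on library totals without a scaling factor, where the value was 0.50 (FDR 0.0765), and in replicates 1 and 2 alone, where it was 0.59 (FDR 0.327).

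Socs4, linked to restraint of the EGF receptor, was the one member called lower. It was at 15.7, 20.3, 22 and 20.2 CPM in DMSO and at 12.5, 15.4, 16.5 and 16.2 CPM in LPS, and LPS was the lower of the pair in 4 of 4 same-numbered pairs although the groups overlapped. The log2 fold change was -0.41 (SE 0.150, edgeR FDR 0.0395). This call was the least stable: without any 1 of RNA DMSO replicates 2 to 4, RNA LPS replicates 1 to 4 or RNA LPS+TM7nox replicate 4 the FDR was 0.0534 to 0.117, and DESeq2 gave 0.0535, RLE scaling 0.0705, no filter 0.232 and replicates 1 and 2 alone 0.492.

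Socs5 and Socs6 were not called. Socs5, which like Socs4 acts on the EGF receptor, had a mean of 15.0 ± 2.31 CPM without LPS and of 15.1 ± 3.02 CPM with it (SD, n = 4), and differed by -0.04 on the log2 scale (95% interval -0.40 to 0.32, edgeR FDR 0.874). Socs6, which binds the stem cell factor receptor KIT, was at 17.8, 17.1, 19.7 and 15.8 CPM in DMSO and at 20.1, 20.9, 25.5 and 22.1 CPM in LPS. Its groups did not overlap (log2 fold change 0.30, SE 0.139, edgeR FDR 0.0959), and with the replicate number as a block it was called (0.32, FDR 0.0322), as it was without RNA LPS+TM7nox replicate 1 (0.36, FDR 0.0287) and by DESeq2 (0.36, FDR 0.0447).

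Socs2, a restraint on growth hormone signalling, was too low in RNA for a test. Its 10 counts in DMSO all fell in replicate 1, the shallowest library (2.12 CPM), with 0 counts in the other 3. LPS gave 12 counts over 4 libraries and LPS+TM7nox 11. The ratio of LPS to DMSO over the summed counts was 1.09, with a 95% counting interval of 0.432 to 2.82. It was 0.688 without RNA DMSO replicate 2, and without replicate 1, which leaves 0 counts in DMSO, LPS was at least 3.47-fold higher.

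**Figure D2:**
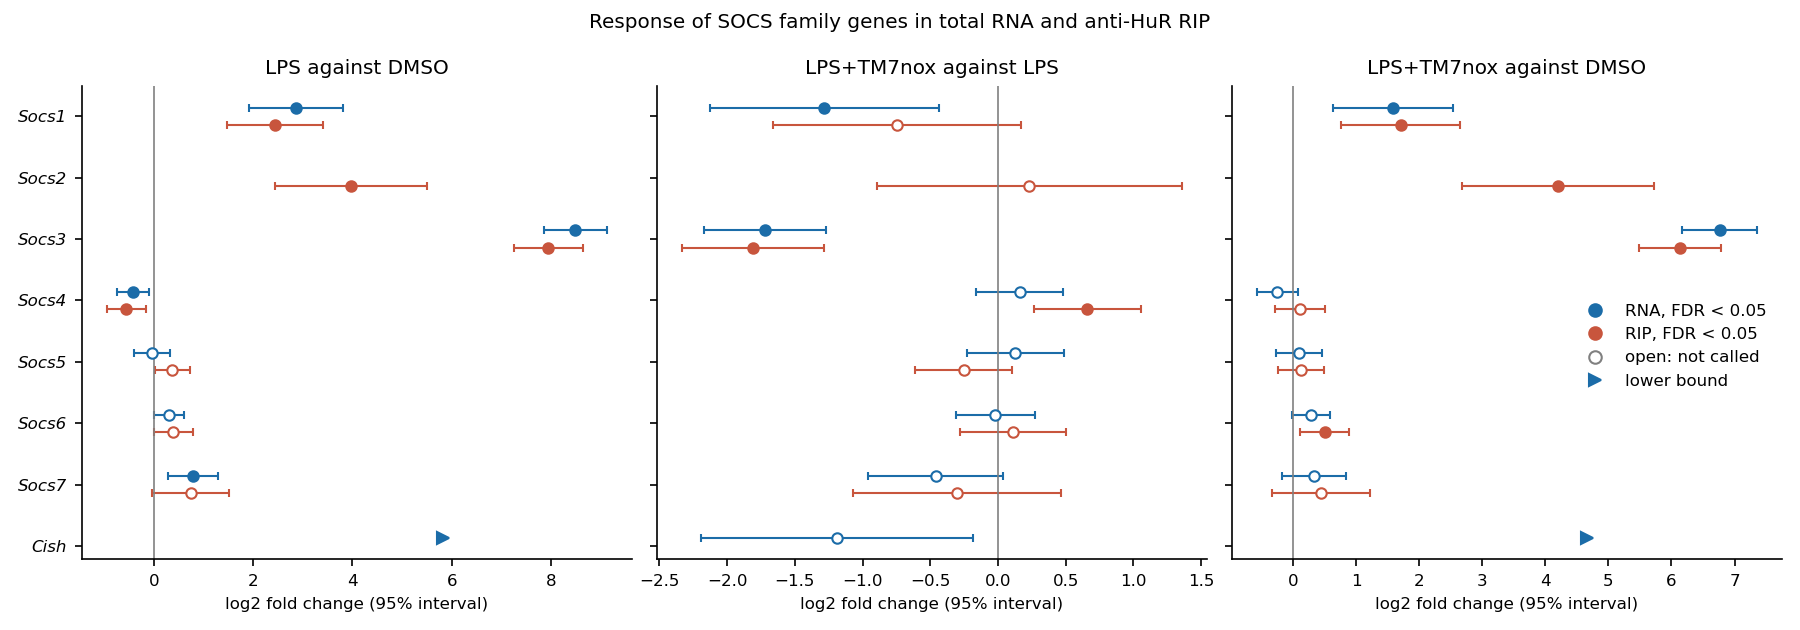
Log2 fold change with its 95% interval for each member in total RNA (blue) and in anti-HuR RIP (red), in 3 comparisons. Filled points passed an FDR of 0.05, open points did not, members without a point were not tested, and the triangles give the lower bound for Cish against RNA DMSO, where it had 0 counts. Of the members drawn with an interval, Socs3 had the highest values for LPS against DMSO, 8.49 and 7.95.

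Adding TM7nox to LPS lowered the 2 JAK-inhibiting members of the family in total RNA. Socs3 and Socs1 were called lower and no member was called higher, with 7 members tested and 13.8% of all 12369 genes called (7.37% higher, 6.4% lower). The median log2 fold change was -0.46 over the members and -0.003 over all genes. TM7nox was given only together with LPS, so its effect on resting cells was not measured.

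Socs3 fell from 846, 756, 803 and 813 CPM in LPS to 215, 285, 243 and 229 CPM in LPS+TM7nox (243 ± 30.4, SD, n = 4). The groups did not overlap, and the mean with TM7nox was 0.302 of that in LPS, a log2 fold change of -1.72 (SE 0.210, edgeR FDR 0.000118). In replicates 1 and 2 alone the value was -1.68, but the FDR was 0.0645. Socs3 with TM7nox remained far above DMSO, by 6.76 on the log2 scale (SE 0.276, edgeR FDR 2.04e-09).

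Socs1 was at 2.96, 3.67, 1.68 and 2.97 CPM with TM7nox (2.82 ± 0.832, SD, n = 4), below all 4 LPS libraries. Its log2 fold change was -1.28 (SE 0.393, edgeR FDR 0.0437). Without any 1 of RNA LPS replicates 1 or 2, RNA LPS+TM7nox replicates 1 to 4 or RNA DMSO replicate 3, the FDR was 0.0533 to 0.128, with values of -1.44 to -1.08. In replicates 1 and 2 alone the FDR was 0.144.

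Cish was lower too, without a call. It was at 0.340, 0.514, 1.11 and 0.765 CPM with TM7nox, lower than LPS in 4 of 4 same-numbered pairs. The log2 fold change was -1.19 (SE 0.456, edgeR FDR 0.120), and with the replicate block it was -1.25 (FDR 0.0406). From the summed counts, 74 against 186, the ratio was 0.447 (95% counting interval 0.336 to 0.588).

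Socs7 was at 10.2, 20.2, 25.1 and 24.6 CPM with TM7nox, also lower in 4 of 4 pairs, but its log2 fold change of -0.46 was not called (SE 0.232, edgeR FDR 0.231). In replicates 3 and 4 alone it was -0.37 and called (FDR 0.0159). Socs4, Socs5 and Socs6 had log2 fold changes of 0.16 (95% interval -0.16 to 0.48), 0.13 (-0.23 to 0.48) and -0.02 (-0.31 to 0.27).

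Against DMSO, LPS+TM7nox left 3 members called higher in RNA, beside 47.3% of all genes called in either direction (23.7% higher, 23.6% lower). Socs3 is given above, Socs1 was higher by 1.58 on the log2 scale (SE 0.442, edgeR FDR 0.00892), and Cish, with the limit given above, was at least 25.2-fold higher (edgeR FDR 8.51e-05), or 15.9-fold without RNA DMSO replicate 2. In replicates 1 and 2 alone Socs1 and Cish were not called (FDR 0.107 and 0.0607). Socs6 was called with the replicate block (0.29, FDR 0.0402). RNA LPS+TM7nox replicate 1 decided 2 further members: without it Socs6 was at 0.44 (FDR 0.0145) and Socs7 at 0.60 (FDR 0.00893). The LPS and DMSO libraries are shared between these 3 comparisons, so the comparisons are not independent of each other.

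The RNA recovered with the anti-HuR antibody was compared between the same treatments. Levels in RIP include the background of the precipitation. Against IgG, Socs1, Socs4 and Socs6 were higher with anti-HuR and Cish was lower. Socs3 did not differ detectably from IgG (log2 difference 0.06, edgeR FDR 0.832). Changes of Socs3 and Cish in RIP are thus not read as changes in RNA bound to HuR. In RIP from LPS against DMSO, Socs3 and Socs1 rose as in RNA, Socs2 rose as well, and Socs4 fell. Of 7 members tested (Cish did not pass the filter), 3 were called higher and 1 lower, beside 44.7% of all 13614 genes tested (23.5% higher, 21.2% lower). Socs2, 1 of the 3, passed the filter only through libraries that had received LPS, so it could enter only as higher, and nothing is read from the count. With the replicate block 7 members were called.

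Socs3 in RIP was at 3.93, 1.69, 2.09 and 3.97 CPM in DMSO and at 653, 638, 746 and 875 CPM in LPS (728 ± 109, SD, n = 4). The log2 fold change was 7.95 (SE 0.330, edgeR FDR 7.43e-11). Socs1 in RIP was at 12, 7.50, 2.91 and 5.93 CPM in DMSO and at 53.3, 56.4, 15.5 and 31.7 CPM in LPS. The Socs1 groups did not overlap (log2 fold change 2.45, SE 0.454, edgeR FDR 0.000417), and replicate 3 was the lowest in each.

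Socs2 had 1 count in each of the 4 RIP DMSO libraries and 9, 18, 14 and 9 counts in LPS (0.652 ± 0.234 CPM, SD, n = 4). The ratio over summed counts was 18.2 (95% counting interval 6.69 to 69.5), and edgeR gave an FDR of 0.00035, conditional on the high counts with LPS that took it through the filter. With no filter it was called too (FDR 3.12e-06). Cish had 1 count in RIP from DMSO and 67 in LPS, a ratio of 97.7 (95% counting interval 17.0 to 3917). Of the latter, 39 counts came from replicate 4, without which the ratio was 52.6 (8.70 to 2151). Without RIP DMSO replicate 2, which held the 1 count, Cish was at least 23.8-fold higher.

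Socs4 in RIP was at 134, 181, 184 and 160 CPM in DMSO and at 94.3, 139, 127 and 96.2 CPM in LPS, lower in 4 of 4 pairs with overlapping groups. Socs4 fell with a log2 fold change of -0.55 (SE 0.186, edgeR FDR 0.0236). Without any 1 of RIP LPS replicates 1 or 4 or RIP DMSO replicate 2 the FDR was 0.0509 to 0.0580, without the filter on low counts it was 0.0676, and in replicates 1 and 2 alone it was 0.275. Socs5, Socs6 and Socs7 were higher in 4 of 4 pairs without being called, with log2 fold changes of 0.37, 0.39 and 0.74. With the replicate block their FDR was 0.024, 0.00598 and 8.64e-05, and Socs7 was also called without RIP DMSO replicate 4 (1.00, FDR 0.0459). On library totals Socs5 and Socs6 changed sign, to -0.25 each.

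With TM7nox added to LPS, Socs3 fell and Socs4 rose in RIP. These were the 2 members called of 7 tested, beside 16.2% of all 13614 genes (8.64% higher, 7.61% lower), and 4 members were called with the replicate block. Socs3 was at 167, 227, 241 and 224 CPM (215 ± 32.8, SD, n = 4), below every LPS library, with a log2 fold change of -1.81 (SE 0.248, edgeR FDR 0.000183). This fall was close to that in total RNA, -1.72.

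Socs4 in RIP was at 138, 214, 201 and 191 CPM with TM7nox (186 ± 33.3, SD, n = 4), against 94.3, 139, 127 and 96.2 CPM in LPS. It was higher in 4 of 4 pairs, and the groups overlapped through RIP LPS+TM7nox replicate 1. The log2 fold change was 0.66 (SE 0.187, edgeR FDR 0.0241). Without any 1 of RIP LPS replicates 1 or 4 or RIP LPS+TM7nox replicates 2 or 4 the FDR was 0.0535 to 0.0777, and in replicates 3 and 4 alone it was 0.0587 with a value of 0.81. In replicates 1 and 2 alone the value was 0.56 (FDR 0.316).

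Socs1 in RIP was at 22.7, 35.5, 11.8 and 27.3 CPM with TM7nox, lower than LPS in 4 of 4 pairs. Its log2 fold change of -0.74 was not called (SE 0.431, edgeR FDR 0.260) but was with the replicate block (-0.66, FDR 0.00926). Socs7 was at -0.30 and was likewise called with the block (-0.39, FDR 0.0259). Socs2 had 57 counts against 50 in LPS (ratio 1.18, 95% counting interval 0.795 to 1.76). Cish had 18 counts against 67 (ratio 0.279, 95% counting interval 0.156 to 0.474). Without RIP LPS replicate 4 the ratio was 0.518 (0.270 to 0.970), and without RIP LPS+TM7nox replicate 3 it was 0.0933 (0.0247 to 0.250).

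Between RIP from LPS+TM7nox and from DMSO, 4 members were called higher, beside 48.1% of all genes (25.1% higher, 23.1% lower). Socs3 was higher by 6.14, Socs2 (which passed the filter as above) by 4.2, Socs1 by 1.70 and Socs6 by 0.50 on the log2 scale (edgeR FDR 6.02e-10, 0.000178, 0.00522 and 0.0348). The Socs6 call ended without any 1 of RIP DMSO replicates 1, 2 or 4 or RIP LPS+TM7nox replicates 2 to 4 (FDR 0.0560 to 0.128), without the filter (FDR 0.0923) and in either pair of replicates alone (FDR 0.208 and 0.056), and on library totals its sign turned (-0.15). Socs7 was called with the replicate block (0.36, FDR 0.0214).

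Recovery by the antibody was then set against total RNA. RIP over RNA divides a gene's level in RIP by that in RNA. Since scaling sets the typical gene near 1, the ratio has no absolute meaning. In DMSO, Socs1, Socs4 and Socs6, 3 of 8 members, were called higher in RIP and none lower, beside 70.4% of all 14311 genes tested (37% higher, 33.4% lower). In LPS and in LPS+TM7nox the same members and Socs2 were called higher, beside 63.7% (32.9% higher, 30.8% lower) and 69.9% (35.2% higher, 34.8% lower). Socs2 failed the filter in RNA alone and passed it in RIP only through libraries that had received LPS. Its calls here are thus conditional on high RIP counts with LPS, and nothing is read from the number of members called. On library totals 5 members were called in LPS, and Socs5 was then called lower (-0.64, edgeR FDR 0.00246).

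A 25-base stretch of the 3′ UTR with the most U is shown for 3 of the 4 members called higher in RIP over RNA in LPS (Socs4, Socs1 and Socs2) and for Socs3 and Cish, which were not called, from the GRCm39 genome and the GENCODE M39 annotation, written with T for U. Capitals mark runs of at least 4 T.
Socs4, chr14:47529738-47529762 on the plus strand: ttggaTTTTgtttgTTTTTTTTTTT
Socs1, chr16:10602034-10602058 on the minus strand: ttattatttcttattattaattatt
Socs2, chr10:95224395-95224419 on the minus strand: tatatatataTTTTTTTTTTTTTTT
Socs3, chr11:117857121-117857145 on the minus strand: tggcTTTTTTctctctgTTTTgaat
Cish, chr9:107179106-107179130 on the plus strand: gTTTTTcttccactgaTTTTTTTct
The window held 20 U in Socs4 and in Socs2, 17 in Socs1, 15 in Socs3 and 16 in Cish. In Socs1 the U were broken up by A, with no run of 4.

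Socs4 and Socs1 had the highest recovery over RNA among members with counts in every library, and did not differ beyond the Socs1 SE of 0.506 in DMSO. The same-numbered ratios of RIP to RNA were 8.54, 8.91, 8.38 and 7.91 in DMSO, 7.55, 9.02, 7.74 and 5.96 in LPS, and 10.9, 11.8, 10.5 and 10.9 in LPS+TM7nox. The TM7nox ratios lay above all others. In the fit over 24 libraries the log2 ratio was 3.17 in DMSO, 2.91 in LPS and 3.42 in LPS+TM7nox (edgeR FDR 6.25e-13, 2.76e-12 and 1.28e-13). In LPS this placed Socs4 at the 88.7th percentile of coding genes.

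Socs1 ratios spread from 4.12 to 15.0 without LPS, where the highest rested on 12 RNA counts in DMSO replicate 4. They spread from 3.45 to 6.88 with LPS, and from 7.05 to 9.67 when TM7nox was added, above all LPS ratios. The log2 ratios were 3.06, 2.55 and 3.09 (edgeR FDR 8.23e-06, 1.55e-05 and 1.55e-06). Socs6 ratios ranged from 1.33 to 2.15 over all 12 pairs, with log2 ratios of 0.84, 0.80 and 0.94 (edgeR FDR 0.000165, 0.000293 and 3.82e-05). On library totals the Socs6 values were 0.05, -0.20 and -0.04 and none was called, while the median of all genes moved to -0.72, -1.06 and -1.07. Relative to that median Socs6 was above the typical gene under both scalings. Its percentiles among coding genes were 63.7, 67.2 and 66.5, near the 62.8, 64.2 and 64.2 of Socs7, which was not called.

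Socs2 was called in RIP over RNA in LPS (2.62, edgeR FDR 0.0394) and in LPS+TM7nox (2.81, FDR 0.027), from 12 and 11 RNA counts. In DMSO it was not called (FDR 0.196). There the 10 RNA counts all came from replicate 1 and the other RNA libraries held 0, against 1 count in each of the 4 RIP libraries (ratio of summed counts 0.373, 95% counting interval 0.0854 to 1.29). The call in LPS ended without any 1 of RNA LPS replicates 1 to 4 or RIP LPS replicates 2 or 3 (FDR 0.0543 to 0.0910). That in LPS+TM7nox ended without any 1 of RNA LPS+TM7nox replicates 1 or 2 or RIP LPS+TM7nox replicates 3 or 4 (FDR 0.0642 to 0.0724), and both ended on library totals (FDR 0.175 and 0.130).

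Socs3, the member with the highest level in LPS, was recovered like the typical gene. Its same-numbered ratios lay between 0.757 and 2.37 without LPS, between 0.773 and 1.08 with LPS, and between 0.774 and 0.990 with TM7nox added. The 3 treatments overlapped. The log2 ratios were 0.48, -0.14 and -0.21 and were not called (edgeR FDR 0.106, 0.602 and 0.401). The value in LPS and in LPS+TM7nox turned to 0.03 and 0.01 with RLE scaling and to -1.14 and -1.21 on library totals. In DMSO it was called without RNA DMSO replicate 1 or RIP DMSO replicate 2 (0.60 and 0.67, FDR 0.0460 and 0.0269) and by DESeq2 (0.64, FDR 0.0248).

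Socs7 was close to the threshold, with log2 ratios of 0.77, 0.61 and 0.76 (edgeR FDR 0.0521, 0.124 and 0.0526), and was called with the replicate block in all 3 treatments (FDR 0.0019, 0.0127 and 0.00212). On library totals the Socs7 values were -0.001, -0.38 and -0.23. Leaving out 1 library gave a call for Socs7 in DMSO for any 1 of 4 libraries (RNA LPS+TM7nox replicate 1, RIP DMSO replicates 1 and 2, RIP LPS+TM7nox replicate 4; 0.68 to 0.92, FDR 0.0289 to 0.0474). In LPS+TM7nox it did so for any 1 of 11 (RNA LPS+TM7nox replicates 3 and 4, RIP DMSO replicates 3 and 4, RIP LPS replicates 1 to 4, RIP LPS+TM7nox replicates 1 to 3; 0.76 to 1.05, FDR 0.00697 to 0.0478). Without replicate 4 of the RIP libraries of the treatment itself, the Socs7 value was 0.47 in DMSO, 0.35 in LPS and 0.36 in LPS+TM7nox (FDR 0.246, 0.376 and 0.301). Socs5 was near 0 in DMSO and LPS+TM7nox (0.04 and -0.02). In LPS its ratios of 1.11 to 1.41 lay above those in DMSO, 0.917 to 1.01, and the log2 ratio of 0.34 (edgeR FDR 0.121) was called with the replicate block (0.35, FDR 0.031) and without RIP LPS replicate 1 (0.46, FDR 0.0333). Cish had log2 ratios of -0.80 in LPS (edgeR FDR 0.297) and -1.67 in LPS+TM7nox (FDR 0.0545, and 0.0145 with the replicate block). The value in LPS+TM7nox was called without any 1 of RIP LPS+TM7nox replicate 3 (-2.97, FDR 0.0074), RNA LPS+TM7nox replicate 1 (-1.91, FDR 0.035) or RIP LPS replicate 4 (-1.59, FDR 0.0435). Without RIP LPS replicate 4 the Cish value in LPS was -1.71 (FDR 0.0348).

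**Figure D3:**
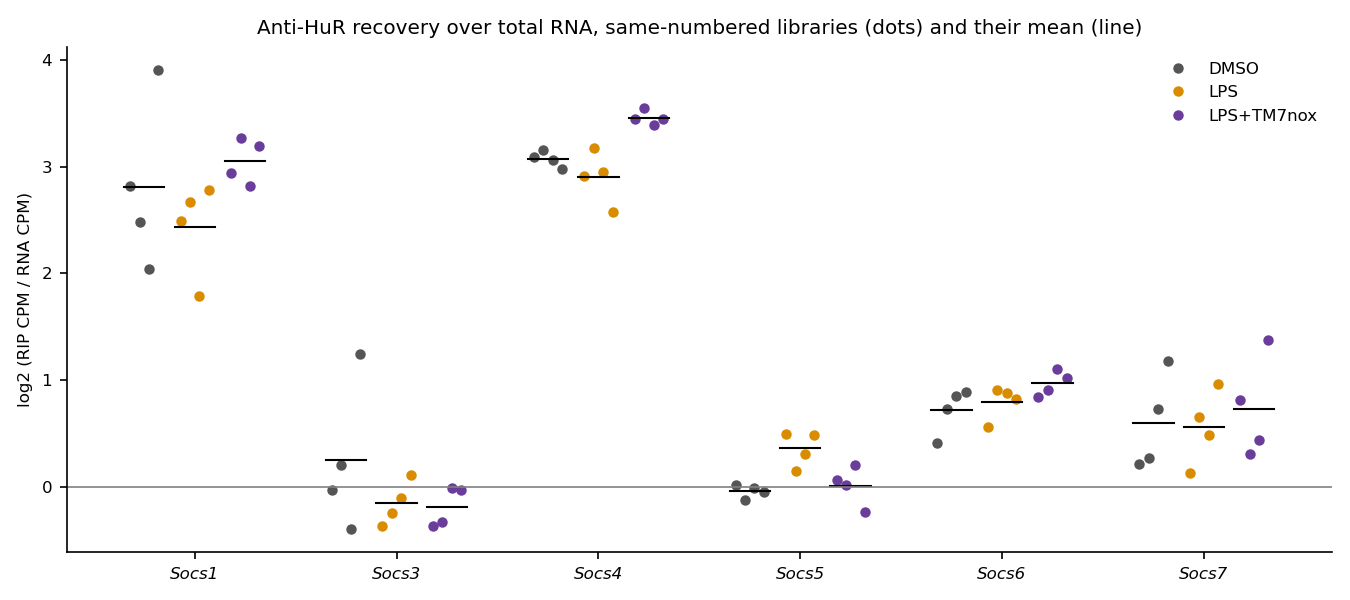
Log2 ratio of RIP to RNA CPM for same-numbered libraries (dots) with their mean (line) in DMSO, LPS and LPS+TM7nox, for the 6 members with counts in every library. Socs4 and Socs1 lay highest, and the Socs4 ratios with TM7nox, 10.5 to 11.8, lay above the 5.96 to 9.02 of LPS.

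The IgG libraries give the background of the precipitation. With treatment as a covariate, Socs1, Socs4 and Socs6 were higher with anti-HuR than with IgG and Cish was lower, 4 of 8 members, beside 68.1% of all 14973 genes tested (33.8% higher, 34.2% lower). Socs4 was at 20.7, 15.5 and 17.9 CPM in IgG from DMSO, LPS and LPS+TM7nox, like its level in total RNA and far below that in RIP. Its log2 difference was 3.05 (SE 0.209, edgeR FDR 2.7e-10).

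Socs3 in IgG was at 1.97, 829.3 and 212 CPM, within or near the range of both RNA and RIP. Its log2 difference between anti-HuR and IgG was 0.06 (95% interval -0.41 to 0.53, edgeR FDR 0.832), so no recovery of Socs3 beyond IgG was detectable relative to the typical gene. With the replicate block the value was -0.05. Socs1 was at 0.467, 3.80 and 0.945 CPM in IgG, with a log2 difference of 3.79 (SE 0.521, edgeR FDR 2.57e-06). All IgG libraries are replicate 3, and with the replicate block the Socs1 value was 2.45 (FDR 1.46e-07).

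Socs6 was at 12.5, 27.5 and 15.9 CPM in IgG, with a log2 difference of 0.98 (edgeR FDR 0.000253) that was -0.05 on library totals. Cish, at 0.0779, 2.46 and 0.773 CPM in IgG, had a log2 difference of -1.75 (edgeR FDR 0.0309). That call ended with the replicate block (-1.23, FDR 0.129) and without any 1 of the IgG libraries or RIP LPS replicate 2 (FDR 0.0569 to 0.102). Socs2 and Socs5 were not called (FDR 0.0812 and 0.0816) but were with the block (FDR 0.0401 and 0.0314), and Socs2 was without IgG DMSO replicate 3 (FDR 0.00116). Socs7, at 19.1, 37.8 and 30.0 CPM in IgG, was not called either (0.23, edgeR FDR 0.525).

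Whether TM7nox or LPS altered recovery was tested as an interaction of assay and treatment (the change of RIP over RNA). No member was called by edgeR or by DESeq2 for LPS against DMSO or for LPS+TM7nox against LPS, beside 0.0419% (0.014% higher, 0.028% lower) and 0.00699% (all higher) of all 14311 genes. At an unadjusted p under 0.05, 1 member (Socs2) passed for LPS against DMSO and 0 for LPS+TM7nox against LPS. The Socs2 value rested on the 10 counts of RNA DMSO replicate 1.

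For Socs4 the change with TM7nox was 0.51 on the log2 scale (95% interval -0.03 to 1.05, edgeR FDR 0.871). With the replicate block it was 0.52 (FDR 0.297). Between same-numbered libraries the log2 ratio was higher with TM7nox in 4 of 4 numbers, by 0.53, 0.38, 0.44 and 0.88, and the ratios did not overlap. The interaction was thus not called after adjustment over all genes, although every pair moved the same way. For Socs3 the change was -0.07 (-0.73 to 0.58), and for Socs1 0.55 (-0.68 to 1.77). For LPS against DMSO the change was -0.62 for Socs3 (-1.34 to 0.09, edgeR FDR 0.748), and 0.30 for Socs5 (-0.26 to 0.86).

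Members called higher in RIP over RNA did not share one kind of 3′ UTR. Of 11213 coding genes tested, 98% had a 3′ UTR of at least 50 bases, with a median of 29.2% U and 2 AUUUA pentamers. Socs4 had the second longest 3′ UTR of the family, 5182 bases with 34.9% U and 17 AUUUA, more pentamers than 98.4% of coding genes. Socs6 had 4019 bases, 34.4% U and 10 AUUUA. Socs1 had 1990 bases, 26.0% U and no AUUUA. Socs3 had 1474 bases, 22% U and 4 AUUUA, and Cish 1884 bases, 24.1% U and 3 AUUUA. Socs5 and Socs7 had 31.6% and 26.5% U, and Socs2 26.4%.

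Across coding genes the median RIP over RNA in LPS rose with U content, from -0.81 in 210 genes under 20% U, through -0.62, -0.34 and 0.16, to 0.40 in 990 genes over 35% U. Socs1, at 2.55, stood above the upper quartile of its bin of 25 to 30% U, which was 0.54. Socs3, at -0.14, lay between the median and the upper quartile of its own, from 20 to 25% U. This is a description across genes, which are not replicates.

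**Figure D4:**
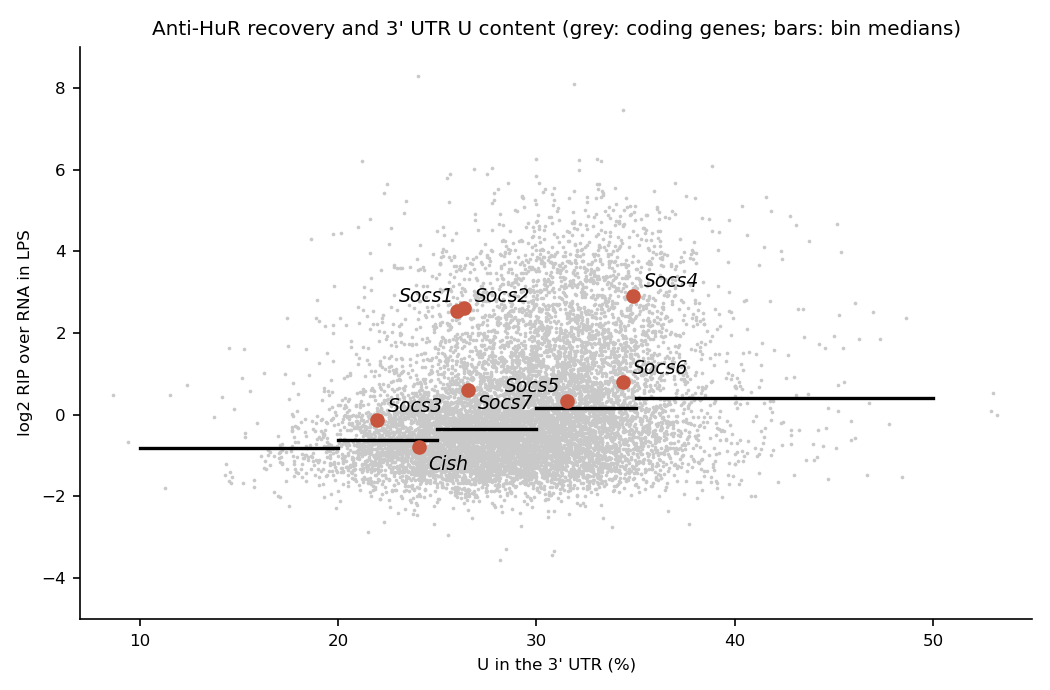
Log2 RIP over RNA in LPS against the percentage of U in the 3′ UTR for coding genes (grey points), with the median of each bin of U content (black bars, from -0.81 to 0.40) and the SOCS family (red points). Socs4 combined 34.9% U with a ratio of 2.91, while Socs1 reached 2.55 at 26.0% U.

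Of the 8 members, 7 overlap a gene annotated on the other strand, and Socs6 also overlaps others on its own. Socs4 (chr14:47514368-47533559 on the plus strand, GRCm39) overlaps none. Socs3 (chr11:117856905-117860898, minus strand), Socs1 (chr16:10600104-10603875, minus strand) and Cish (chr9:107173225-107179983, plus strand) each overlap predicted genes on the other strand. Whether the counting used strand is not given in the sources used here, so reads of overlapping genes may be included.

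Most JAK and STAT genes rose with LPS. In total RNA from LPS against DMSO, 3 of 4 JAK kinases and 4 of 6 tested STAT factors were called higher and none lower, beside the 42% of all genes called (20.2% higher, 21.7% lower). Of 20 listed ligands that signal through JAKs, 11 passed the filter on low counts and were called higher, and the 9 others have no value. In RNA from DMSO the means of these 11 lay between 0 and 2.53 CPM, and 9 of them passed the filter only with the help of libraries that had received LPS. The filter thus fixes part of this count, and nothing is read from it. Of 19 tested receptors (of 33), 6 were higher and 4 lower; 2 of the 19 needed that help, and Il4ra, 1 of them, is among the 6. The medians of the JAK and STAT lists were 0.84 and 1.90, against -0.04 over all genes.

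Among kinases, Jak2, used by many receptors including those for interferon-gamma and GM-CSF, went from 17.6 ± 1.86 to 135 ± 33 CPM (SD, n = 4 each; log2 fold change 2.90, edgeR FDR 1.17e-07). Tyk2, a kinase of type I interferon signalling, went from 20.4 ± 3.28 to 47.3 ± 4.51 CPM (1.18, FDR 1.46e-05). Stat2, part of the factor ISGF3 of the type I interferon response, went from 24.6 ± 4.66 to 179 ± 15.6 CPM (2.84, FDR 5.39e-09). Stat3, the main transducer of IL-6 and IL-10 and a known activator of Socs3, went from 33.7 ± 4.10 to 193 ± 9.97 CPM (2.49, FDR 4.41e-09).

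For LPS against DMSO, levels alone are given for genes of the lists that needed libraries with LPS to pass the filter. Of the ligands, Csf3, which encodes G-CSF, had a level of 0.466 ± 0.398 CPM without LPS and 441 ± 36.5 CPM with it, and Il27, a subunit of IL-27, of 0.396 ± 0.328 and 326 ± 68.7 CPM. Of the receptors, Il4ra was at 0.568 ± 0.532 and 23.7 ± 3.71 CPM, while Il15ra rose from 1.92 ± 0.243 to 13.0 ± 2.54 CPM. Il6ra, the IL-6 binding chain, fell from 55.1 ± 9.39 to 22.7 ± 9.96 CPM (-1.31, FDR 0.00572), and Ifngr1, the ligand-binding chain for interferon-gamma, from 26.5 ± 4.58 to 15.1 ± 1.29 CPM (-0.86, FDR 8.55e-05).

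The machinery that SOCS boxes recruit moved little. Of 7 ligase partners, 1 was called higher, Ube2f, a conjugating enzyme for NEDD8, which went from 32.1 ± 2.55 to 65.3 ± 7.07 CPM (1.00, edgeR FDR 8.29e-06). Of 14 tested other SOCS-box proteins, 6 were higher and 1 lower, beside 42% of all genes called. Of the 14, 3 needed libraries with LPS to pass the filter, and 2 of these, Spsb1 and Asb11, named for that reason, are among the 6. Asb6 and Wsb2 rose by 1.13 and 0.98 on the log2 scale, and Rab40c fell from 7.47 ± 0.627 to 3.83 ± 0.906 CPM (-0.98, FDR 0.00165). Of 12 other restraints on JAK-STAT signalling, 5 were higher and none lower, a share close to the 42% of all genes. Usp18, a brake on the type I interferon receptor, rose from 44.5 ± 13.0 to 413 ± 41.8 CPM (3.18, FDR 3.68e-08), and Ptprc, the phosphatase CD45, from 125 ± 7.01 to 229 ± 14.9 CPM (0.84, FDR 2.9e-05).

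With TM7nox added to LPS, 0 of 4 JAK kinases, 2 of 6 STAT factors (both lower), 2 of 11 ligands (both lower) and 7 of 19 receptors (2 higher, 5 lower) were called in RNA, beside 13.8% of all genes (7.37% higher, 6.4% lower). Stat3 fell to 106 ± 8.97 CPM (-0.86, edgeR FDR 0.000297), while Stat2 was at 198 ± 11.7 CPM (0.15, FDR 0.556). Il27 fell to 140 ± 61.8 CPM (-1.21, FDR 0.025) and Il4ra to 4.79 ± 2.74 CPM (-2.30, FDR 0.0064). Csf3 was at 355 ± 98.3 CPM (-0.31, FDR 0.598), and Usp18 at 408 ± 83.2 CPM (-0.02, FDR 0.972). Of the 12 other restraints 1 was called, Ptpn6, which encodes the phosphatase SHP-1 and is named as the only one called; it fell (-0.83, FDR 0.000763). None of the 7 ligase partners was called. Wsb2 fell (-0.55, FDR 0.0238), and Rab40c rose (0.69, FDR 0.0402), to 6.15 ± 1.08 CPM.

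**Figure D5:**
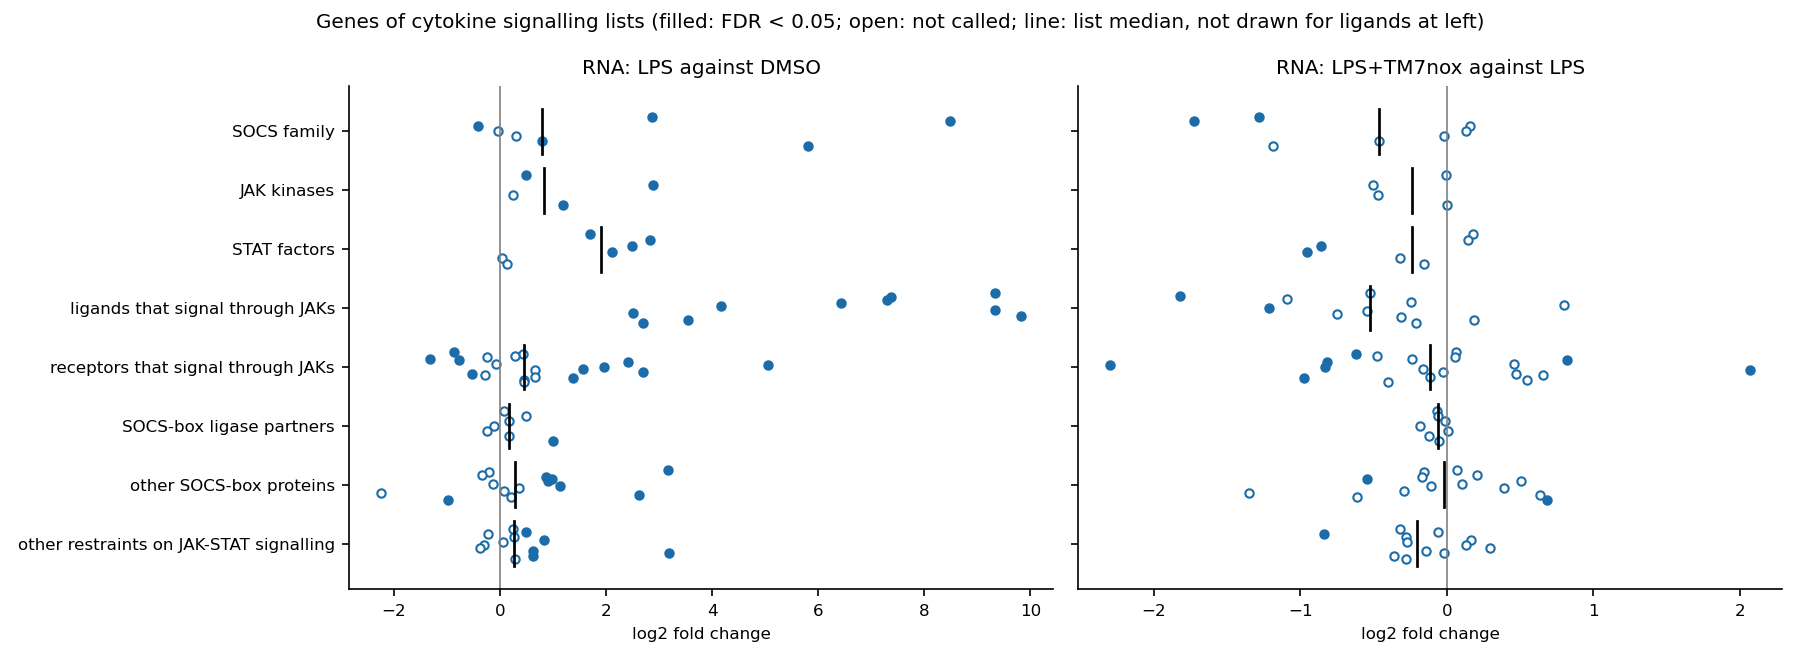
Log2 fold change in total RNA of the SOCS family and of 7 lists of cytokine signalling genes, for LPS against DMSO and LPS+TM7nox against LPS. Filled points passed an FDR of 0.05, open points did not, and lines are list medians. Against DMSO, Cish is drawn at its lower bound, Csf2 is left out because it had 0 counts in DMSO, and the ligands have no median line; 3 of 4 JAK kinases were called in LPS and none with TM7nox.

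In RIP over RNA in LPS, the pathway lists were spread on both sides. Of the 4 JAK kinases 2 were called lower, and of the 6 tested STAT factors 3 were higher and 2 lower. Among 20 tested receptors 7 were higher and 6 lower. These counts stand beside 63.7% of all genes called (32.9% higher, 30.8% lower), and the receptors' share is near it. Il6ra was at 3.36 on the log2 scale (edgeR FDR 3e-09) and Ifngr1 at 1.03 (FDR 4.59e-05), while Stat2 was at -1.15 (FDR 2.54e-05) and Stat3 at -0.14 (FDR 0.408).

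The genes whose levels most resembled each member were sought over the 12 RNA libraries among 8163 coding genes with a mean of at least 5 CPM. The measure was Pearson's r of log2 CPM, given as a description. It largely reflects the treatment for members that responded. For Socs3 they were Cxcl11, a chemokine induced by interferon (r = 0.996), the cytokine gene Il18 (0.995) and Zc3h12a, which encodes the RNase Regnase-1 (0.995). The Cxcl11 means were 0.378 CPM without LPS, 114 with LPS and 31.8 when TM7nox was added. In the same order those of Il18 were 2.47, 24.4 and 15.1 CPM, and those of Zc3h12a 6.13, 139 and 93.2 CPM. In proportion, Il18 and Zc3h12a thus rose and fell less than Socs3 did.

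For Socs7 the nearest genes were Baz1a (0.963), Bcorl1 (0.954) and Rbm45 (0.933), and for Socs4 Utp14b (0.951), Usp34 (0.930) and Vps13b (0.929). For Socs6 they were Rnf19a (0.935), Atg4d (0.915) and Crkl (0.908), and for Socs5 Cdip1 (0.902), Prepl (0.871) and Cog6 (0.870). Socs1, Socs2 and Cish were below the level required.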

How the data were processed

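The authors deposited 1 table of raw counts (whole numbers of reads per Ensembl gene, not normalized) for 27 libraries, per the file headers. Per the labels' protocols, libraries were made from 7 ng of RNA with the SMART-Seq Stranded kit. The submitters' processing notes name FastQC 0.11.9, STAR, HTSeq, DESeq2 and GRCm39, without role or order. The sources used here give neither the annotation release nor the strand setting of the counting. Reads carried no stated molecular identifiers, so counting intervals and floors cover counting error only.

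All 27 libraries had a group by their labels. Counts were tested by two-sided quasi-likelihood F tests in edgeR 4.0.16 (R 4.3.3), with TMM scaling, filterByExpr at a minimum count of 10 and Benjamini-Hochberg adjustment over all genes tested. Calls required an adjusted p (FDR) under 0.05. Separate fits used the 12 RNA libraries, the 12 RIP libraries, these 24 together (RIP over RNA and its change) and the 12 RIP with the 3 IgG libraries (treatment and antibody as terms). CPM values are on 1 TMM scale over 27 libraries, and CPM per kb uses the length of the canonical transcript. TMM takes most genes as equal between libraries. Scripts were tested on simulated data. Alternatives were DESeq2 1.42.0, RLE scaling, no filter, the replicate number as a block, replicates 1 and 2 or 3 and 4 alone, leaving out each library, and, chosen after seeing the data, library totals without scaling factors and ratios of summed counts without each library.

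No label says that replicates came from separate cultures, so p-values measure the spread between these samples, which may be technical. No 2 replicates agreed within sampling noise (chi-square per gene 38.0 to 213 over 36 pairs). Same-numbered libraries of different treatments deviated together (r of deviations 0.328 to 0.687 in RNA, 0.317 to 0.753 in RIP). The numbers were therefore used for pairs of libraries and for the replicate block among the alternatives. The main fits had no block, since the labels do not say what the number stands for. Deviations of RNA libraries were not compared with those of RIP libraries, so ratios of RIP to RNA are paired by number alone.

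Gene lists (JAK kinases, STAT factors, ligands, receptors, SOCS-box ligase partners, other SOCS-box proteins, other restraints and markers of 7 cell types) and the members were chosen with earlier results of these data known. Genes named from a list were those called in RNA from LPS against DMSO with a mean of at least 5 CPM, at most 2 per direction with the largest fold change. Of the identifiers, 93.2% matched GENCODE M39. Promoters are from RefSeq on GRCm38.p6 for the 4 members found.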

Additional observations from a re-analysis of the deposited data

Results flagged for a closer look

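In 48 groups of 4 libraries (8 members in 6 groups of RNA and RIP libraries), 2 groups were flagged for 1 library set apart from the other 3. The usual chance rate of about 1 group in 20 does not apply to them, as the other 3 libraries held 0 counts. Any count in the remaining library then gives a flag. Socs2 was at 2.12 CPM in RNA DMSO replicate 1, from 10 counts in the shallowest library, with 0 counts in the other 3 libraries. Cish was at 0.0331 CPM in RIP DMSO replicate 2, from 1 count, with 0 in the other 3.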

How the results depend on the processing

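No setting that was run changed the sign of Socs3, Socs1 or Socs4 in LPS against DMSO or in LPS+TM7nox against LPS, in RNA or RIP. Of 90 fitted log2 fold changes, 6 that rest on too few counts were not followed (Socs2 and Cish in RIP over RNA in DMSO and in both changes of RIP over RNA); none was called. Of the 84 others, 35 passed the threshold, and 4 of these (all Socs6 on library totals) changed sign in some setting. Leaving out 1 library ended 8 of these calls and gave 12 others. Reversals are listed by setting, and their cause was not tested.

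Members called, in the order RNA LPS against DMSO (5), RNA LPS+TM7nox against LPS (2), RNA LPS+TM7nox against DMSO (3), RIP LPS against DMSO (4), RIP LPS+TM7nox against LPS (2) and RIP LPS+TM7nox against DMSO (4), were 3, 0, 1, 2, 1 and 2 in replicates 1 and 2 alone, with fewer samples. In replicates 3 and 4 alone they were 6 for RNA LPS+TM7nox against DMSO and 1 for RIP LPS+TM7nox against LPS. With the replicate block, the paired analysis, they were 7 for RIP LPS against DMSO and 4 for RIP LPS+TM7nox against LPS, and the block changed no call beyond those given with the results. Without the filter 4 were called for RIP LPS+TM7nox against LPS. For RIP over RNA in DMSO (3), DESeq2 called 6, RLE scaling 5 and no filter 5. Leaving out 1 library, the counts ran from 1 to 2 for RNA and from 1 to 2 for RIP in LPS+TM7nox against LPS, from 3 to 5 for RNA LPS+TM7nox against DMSO, and from 3 to 5 for RIP over RNA in DMSO. Anti-HuR against IgG could not be run in replicates 1 and 2, which have no IgG library.

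For RNA LPS against DMSO, Socs5 was at 0.0092 with DESeq2, 0.0134 with RLE scaling, 0.0185 without the filter, 0.0052 in replicates 3 and 4 and 0.0075 in replicates 1 and 2. For RNA LPS+TM7nox against LPS, Socs5 was at -0.0113 in replicates 1 and 2, and Socs6 at 0.0292 in replicates 3 and 4. For RNA LPS+TM7nox against DMSO, Socs5 was at -0.0037 in replicates 1 and 2. On library totals the same comparison gave -0.23 for Socs5, -0.0513 for Socs6 and -0.0067 for Socs7. In RIP, library totals gave -0.25 for Socs5 and -0.25 for Socs6 in LPS against DMSO, and -0.55 for Socs4, -0.51 for Socs5, -0.15 for Socs6 and -0.23 for Socs7 in LPS+TM7nox against DMSO. In the latter comparison Socs4 and Socs5 were thus called lower on library totals (edgeR FDR 0.00858 and 0.0424). The main Socs4 value was 0.11 (FDR 0.662).

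For RIP over RNA, library totals gave -0.29 for Socs3, -0.72 for Socs5 and -0.001 for Socs7 in DMSO. They gave -0.64 for Socs5, -0.20 for Socs6 and -0.38 for Socs7 in LPS, and -0.0434 for Socs6 and -0.23 for Socs7 in LPS+TM7nox. Of these values, those of Socs5 in DMSO and in LPS were called lower (edgeR FDR 0.00103 and 0.00246). Without the filter Socs5 was at -0.18 in DMSO. DESeq2 gave 0.0273 and RLE scaling 0.0273 for Socs3 in LPS. In LPS+TM7nox they gave 0.0144 and 0.0144 for Socs3 and 0.20 and 0.20 for Socs5, which was at 0.0453 in replicates 1 and 2. For the change from DMSO to LPS, Socs6 was at 0.12 and Socs7 at 0.0038 without the filter, and at 0.046 and 0.0518 in replicates 1 and 2. For anti-HuR against IgG, Socs3 was at -0.0478 with the replicate block and -0.99 on library totals, which gave -0.72 for Socs5, -0.0466 for Socs6 and -0.81 for Socs7. On library totals Socs3, Socs5 and Socs7 were called lower with anti-HuR than with IgG (edgeR FDR 0.000217, 0.000798 and 0.0159).

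Leaving out 1 library turned the sign of 13 values that were not called. Socs5 ran from -0.13 to 0.0833 for RNA LPS against DMSO, from -0.0008 to 0.18 for RIP LPS+TM7nox against DMSO, and in RIP over RNA from -0.11 to 0.12 in DMSO and from -0.11 to 0.10 in LPS+TM7nox. Socs6 ran from -0.0893 to 0.0744 for RNA LPS+TM7nox against LPS and from -0.12 to 0.18 for the change to LPS. Socs7 ran from -0.063 to 0.71 for RIP LPS+TM7nox against DMSO, from -0.33 to 0.14 for the change to LPS and from -0.26 to 0.48 for the change with TM7nox. Socs2 and Socs4 ran from -0.0988 to 0.61 and from -0.0112 to 0.20 for RIP LPS+TM7nox against LPS and against DMSO. Socs3 ran from -0.16 to 0.0703 for the change with TM7nox and from -0.10 to 0.27 for anti-HuR against IgG. At 18 or fewer counts per library, Socs2 in RNA and RIP from LPS and Cish in RIP from DMSO are limited by depth.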
